A study of Mus musculus with 7 samples.

Results

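The Hox genes of clusters a to d were described in RNA from the posterior second heart field (pSHF) of E9.5 mouse embryos, in *Shh* mutants and in wild-type embryos. Members were all array probes whose gene name is Hox, a cluster letter and a paralog number, which gave 38 genes of the 21475 genes named on the array, covered by 50 of its 41174 probes. Each gene was read from its brightest probe. A single gene of the mouse clusters, *Hoxc11*, was not analysed here. The pSHF is mesoderm dorsal to the heart that adds cells to the venous pole, and the study compared it with and without Shh, the Hedgehog ligand. By the paper's account the dissected piece held the dorsal mesenchymal protrusion, nearby ventral lateral plate mesenchyme and attached foregut, without heart or neural tube. The Hox signals are those of this whole piece and not of pSHF mesoderm alone. There were 4 pools of *Shh* -/- tissue and 3 pools of wild-type +/+ tissue, each hybridized to 1 array of its own and all from embryos of a mixed C56B/6 and CD-1 background. Every pool holds tissue dissected from several embryos, and whether the pools came from separate litters is not given in the sources used here, so that p-values measure the spread between these pools.

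Mammalian Hox genes lie in 4 clusters, and the paralog number gives a gene's place from the 3′ end, where the low numbers lie, to the 5′ end. Genes at the 3′ end are switched on first and reach far forward in the embryo, and genes nearer the 5′ end are switched on later and have a front border nearer the tail, which makes the set of Hox genes in a tissue a guide to its level along the body axis. In the second heart field, 3′ Hox genes downstream of retinoic acid are known to mark posterior progenitors. In bulk RNA from pools, fewer cells of a type and less RNA per cell cannot be told apart.

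The arrays had 60.0% to 70.6% of probes well above background and no saturated spot. They differed in precision. A refit that gives noisier arrays less weight set weights from 0.504 for mutant pool 4 to 4.70 for wild-type pool 3. For pools 1, 3 and 4 the 2 genotypes were hybridized side by side on the same slide, the mutant first each time, and a position effect cannot be told apart from genotype. Mutant pool 2 had a slide to itself, and according to the labels this array may have leaked. Signals below are log2 values after background correction and variance stabilizing normalization (VSN), and the level of 1 gene is not set against that of another, since probes differ in brightness. A change is the mutant mean minus the wild-type mean on this log2 scale. The targeted gene, *Shh*, had log2 signals of 9.67, 9.40, 9.22 and 9.32 in mutant pools 1 to 4 and of 10.72, 10.74 and 9.98 in wild-type pools 1, 3 and 4. All mutant pools were below all wild-type pools for *Shh*, with a change of −1.08 ± 0.20 (SE, limma adjusted p = 0.0662). The 11 genes that mark second heart field and ventral mesenchyme, *Isl1*, *Tbx5* and *Osr1* among them, were all well above background.

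In the dissected tissue the 3′ genes and most central genes of the clusters were detected, and most 5′ genes were not detectable over background. A gene was counted as detected, and was tested, when the probe was read as well above background on all arrays of the mutants or all of the wild-type pools, and 24 of the 38 Hox genes were. All 12 members of paralog groups 1 to 4 were detected, as were 9 of the 11 members of groups 5 to 8 and 3 of the 15 members of groups 9 to 13. These 3 were *Hoxa9*, *Hoxb9* and *Hoxc9*, so that none of the 11 genes of paralog groups 10 to 13 was detected. By cluster, 7 of 11 genes were detected in cluster a on chromosome 6, 9 of 10 in cluster b on chromosome 11, 4 of 8 in cluster c on chromosome 15 and 4 of 9 in cluster d on chromosome 2.

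**Figure D1:**
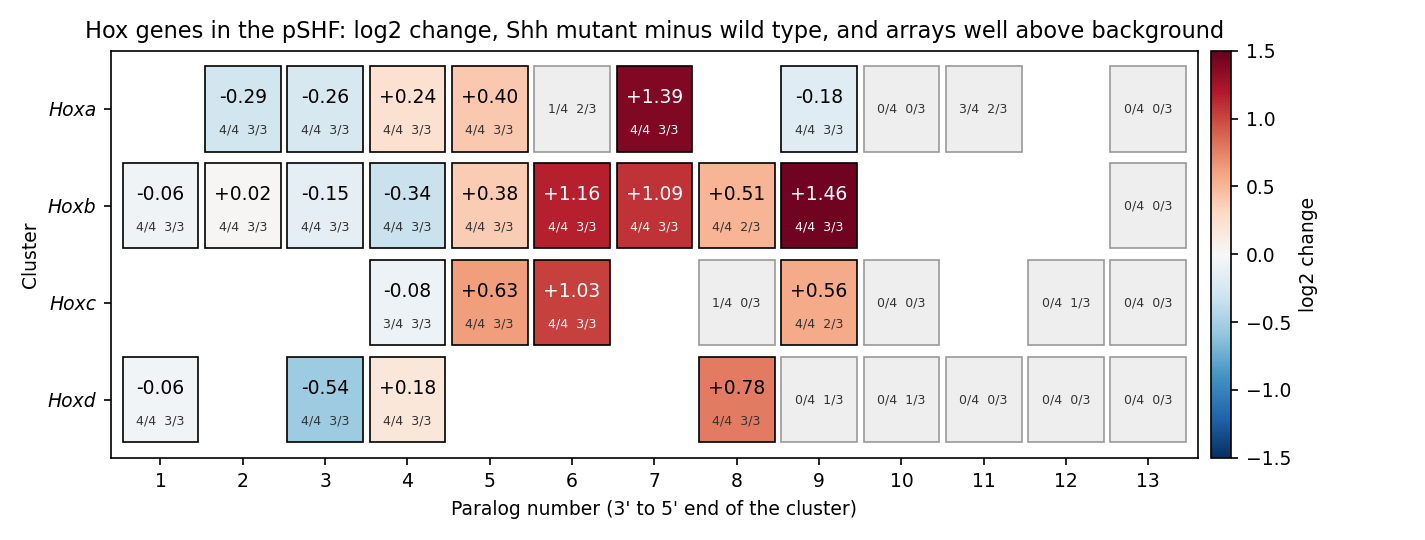
Each box is a Hox gene on the array (1 is not shown), placed by cluster (vertical) and paralog number (horizontal). The small text counts the mutant and then the wild-type arrays on which its probe was well above background, and tested genes carry the log2 change, *Shh* mutant minus wild type, as number and colour. Detected genes fill paralog groups 1 to 4, have gaps at groups 6, 8 and 9 and stop after group 9. Every change of 0.38 or more lies in groups 5 to 9, where *Hoxa9* has the only negative one.

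The border of detection differed between clusters. In cluster b every gene from *Hoxb1* to *Hoxb9* was detected, and *Hoxb13*, a marker of the tail end, was well above background on no array. Clusters a and c each had an undetected gene inside the detected stretch. *Hoxa6* was well above background on 1 mutant and 2 wild-type arrays, with log2 signals from 4.46 to 4.68, and *Hoxc8*, a gene of the thoracic level, was so on mutant pool 1 alone, at 5.08 against 3.32 to 3.61 on the other 6 arrays. In cluster d, *Hoxd8* was the last detected gene, and the probe of *Hoxd9* was well above background on 1 wild-type array.

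Of the 14 undetected genes, 8 were well above background on no array, and they were *Hoxa10*, *Hoxa13*, *Hoxb13*, *Hoxc10*, *Hoxc13*, *Hoxd11*, *Hoxd12* and *Hoxd13*. The Hox13 genes among them pattern the tail bud, the hindgut and the digits. The other 6 were above background on some arrays without filling a genotype. *Hoxa11*, which acts in limb and kidney, came nearest, on 3 mutant and 2 wild-type arrays. Its log2 signals were 4.61, 6.03, 5.37 and 7.41 in mutant pools 1 to 4 and 4.08, 5.16 and 5.16 in wild-type pools 1, 3 and 4. Mutant pools 4 and 2 had the highest *Hoxa11* signals, and the genotypes overlapped. *Hoxc12* and *Hoxd10* were each well above background on 1 wild-type array and no mutant array.

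No Hox gene passed the test between genotypes at an adjusted p under 0.05, against 0.540% of the 23127 probes tested (125 probes, limma, Benjamini-Hochberg over all probes). The unadjusted p was under 0.05 for 10 of the 24 tested Hox genes, against 7.95% of all probes tested in either direction. The lowest adjusted p was that of *Hoxb7* (0.111). The direction differed between paralog groups. In paralog groups 1 to 4, 9 of 12 genes were lower and 3 higher in mutants, with a median change of −0.11. In groups 5 to 8, 9 of 9 detected genes were higher, with a median of 0.78 and a range of 0.38 to 1.39. *Hoxb8* entered through the mutant arrays alone, where it is high, and the 8 genes well above background on all 7 arrays had a median of 0.90. Of the 3 detected genes of group 9, 2 were higher, with a median of 0.56. The median over all probes tested was 0.02.

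The 12 detected genes of paralog groups 5 to 9 can be read together, a grouping made after these values were seen. Of them 11 were higher in mutants, 9 of the 12 with an unadjusted p under 0.05, against 4.00% of all probes tested in this direction. *Hoxb8* and *Hoxc9* passed the detection filter through the mutants only, the genotype with the higher signal, so that the filter favours their direction. Among the 10 genes well above background on all 7 arrays 9 were higher, 8 with an unadjusted p under 0.05. The 4 mutant pools lay above all 3 wild-type pools for 4 of the 12, *Hoxb5*, *Hoxb6*, *Hoxb7* and *Hoxb9*, against 4.84% of the 23025 probes that had 7 values. Over all 24 tested Hox genes the pools of 1 lay the other way without overlap, against 3.53% of these probes. Changes of 2-fold or more were found for 5 of them, *Hoxa7*, *Hoxb6*, *Hoxb7*, *Hoxb9* and *Hoxc6*, against 0.320% of all probes. With arrays scaled to the 75th percentile, or with quantile normalization, 2 of these 5 stayed at 2-fold or more, *Hoxa7* and *Hoxb6*, and with mutant pools 2 and 4 left out none (0) did. Over the 24 tested genes, the change and the paralog number had a Pearson's r of 0.68 and a Spearman's rho of 0.68. These are descriptions across genes that share the same 7 arrays and neighbouring positions, and genes are not independent replicates.

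**Figure D2:**
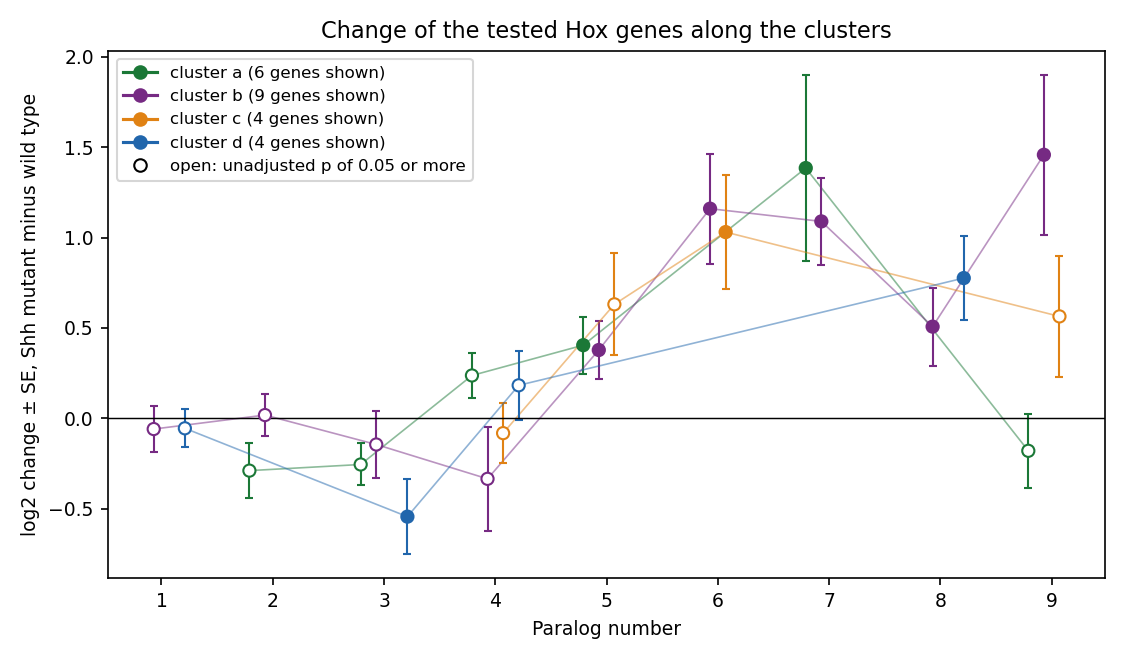
Log2 change with its SE (vertical) against paralog number (horizontal) for 23 of the 24 tested Hox genes, coloured by cluster and joined within a cluster. Open points have an unadjusted p of 0.05 or more. The points of groups 1 to 4 lie between −0.54 and 0.24, those of groups 5 to 8 between 0.38 and 1.39, and *Hoxa9* returns to −0.18.

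The 3′ genes of paralog groups 1 and 2, which pattern the hindbrain and the pharyngeal region, had small changes. *Hoxb1*, which marks posterior second heart field progenitors and the hindbrain segment next to the ear, had log2 signals of 9.09, 9.06, 8.93 and 9.20 in mutants and of 8.93, 9.18 and 9.28 in wild-type pools. These values overlapped throughout, and the change was −0.06 ± 0.13 (SE). *Hoxd1* had 6.53, 6.39, 6.52 and 6.62 in mutants and 6.64, 6.53 and 6.55 in wild-type pools. The change of *Hoxd1* was also −0.06, with an SE of 0.11. *Hoxa2*, the identity gene of the hyoid arch, and *Hoxb2*, its neighbour in the hindbrain, had changes of −0.29 and 0.02.

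In paralog groups 3 and 4, which act in the pharyngeal arches and the neck, *Hoxd3* was the member with the largest change. *Hoxd3* shapes the uppermost vertebrae. It had log2 signals of 5.72, 6.24, 6.34 and 6.55 in mutant pools 1 to 4 and of 6.76, 6.49 and 7.01 in wild-type pools 1, 3 and 4. Mutant pool 4 lay above wild-type pool 3, so the genotypes overlapped by that pair alone. The change was −0.54 ± 0.21 (SE, unadjusted p = 0.0272, adjusted p = 0.478), and it was the only tested Hox gene lower in mutants at an unadjusted p under 0.05, against 3.96% of all probes tested. Without mutant pool 1 the change of *Hoxd3* was −0.38.

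The other 6 members of groups 3 and 4 had changes between −0.34 and 0.24, none with an unadjusted p under 0.05. *Hoxa3*, needed for thymus and parathyroid, and *Hoxb3* were at −0.26 and −0.15. *Hoxb4* was at −0.34 with an SE of 0.29, *Hoxa4* at 0.24 and *Hoxd4* at 0.18. *Hoxc4*, the 3′ end of cluster c on this array, had log2 signals of 5.12, 4.55, 5.08 and 5.20 in mutants and of 5.17, 4.96 and 5.07 in wild-type pools, and was well above background on 3 of 4 mutant arrays. Its change of −0.08 ± 0.17 (SE) was smaller than the spread between pools. Across the border between groups 4 and 5, the change went from −0.34 for *Hoxb4* to 0.38 for *Hoxb5*, and from −0.08 for *Hoxc4* to 0.63 for *Hoxc5*. In cluster a the sign was the same on both sides, with 0.24 for *Hoxa4* and 0.40 for *Hoxa5*, and *Hoxd4* was also above 0. Differences between neighbours were not tested.

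Group 5 genes act in the lower neck, the lung and the gut wall, and all 3 on the array had moderately higher signals in mutants. *Hoxb5* (probe at chr11:96167130-96167189, mm9) had log2 signals of 11.51, 11.43, 11.53 and 12.03 in mutant pools 1 to 4 and of 11.33, 11.12 and 11.29 in wild-type pools 1, 3 and 4. The mutants all lay above the wild-type pools, and mutant pool 4 stood above the other mutants. The change was 0.38 ± 0.16 (SE, unadjusted p = 0.0421, adjusted p = 0.584). *Hoxa5*, needed for lung growth, had 10.24, 9.88, 10.08 and 10.46 in mutants and 9.70, 9.62 and 9.96 in wild-type pools. Mutant pool 2 lay below wild-type pool 4, and the change was 0.40 ± 0.16 (SE, unadjusted p = 0.0315). *Hoxc5* had a change of 0.63 with an unadjusted p of 0.0522.

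Group 6 genes begin at the neck to trunk border. *Hoxb6* (probe at chr11:96162563-96162622, mm9), which is expressed in lateral plate mesoderm, had log2 signals of 10.13, 10.54, 10.20 and 11.04 in mutant pools 1 to 4 and of 8.66, 9.42 and 9.87 in wild-type pools 1, 3 and 4. The lowest mutant pool lay above the highest wild-type pool. The change was 1.16 ± 0.31 (SE), a fold of 2.24, with an adjusted p of 0.194 and an exact two-sided permutation p of 0.0286, the smallest that 4 pools against 3 can give. A second *Hoxb6* probe, designed from another transcript and placed nearer the 5′ end of cluster b, disagreed. It had log2 signals of 6.96, 6.43, 6.41 and 6.89 in mutants and of 6.91, 6.74 and 6.53 in wild-type pools, and a change of −0.06 ± 0.18 (SE). The value for *Hoxb6* therefore rests on its brightest probe.

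*Hoxc6* (probe at chr15:102842032-102842093, mm9) had log2 signals of 6.90, 7.88, 7.10 and 8.03 in mutant pools 1 to 4 and of 6.09, 6.29 and 6.96 in wild-type pools 1, 3 and 4. Mutant pool 1 lay just below wild-type pool 4, and mutant pools 2 and 4 were the highest. The change was 1.03 ± 0.31 (SE), a fold of 2.04, with an adjusted p of 0.295.

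Groups 7 and 8 belong to the thoracic level. *Hoxb7* (probe at chr11:96151211-96151270, mm9) had log2 signals of 8.58, 9.19, 8.78 and 9.54 in mutant pools 1 to 4 and of 7.58, 8.07 and 8.15 in wild-type pools 1, 3 and 4. The lowest of the mutants was above the highest of the wild-type pools. Its change of 1.09 ± 0.24 (SE), a fold of 2.13, had the smallest unadjusted p of the Hox genes, 0.00147, with an exact two-sided permutation p of 0.0286. *Hoxa7* (probe at chr6:52165626-52165685, mm9) had 7.85, 9.23, 8.01 and 10.03 in mutants and 6.85, 7.34 and 7.99 in wild-type pools. Mutant pools 2 and 4 lay far above the rest, and mutant pool 1 was below wild-type pool 4. Its change of 1.39 ± 0.51 (SE), a fold of 2.61, came down to 0.54 with both of those mutant pools left out. Exact two-sided permutation p-values were higher than that of *Hoxb7* for *Hoxb5* (0.0571), *Hoxd3*, *Hoxa5*, *Hoxc6* and *Hoxd8* (0.0857 each), *Hoxb8* (0.114) and *Hoxa7* (0.143).

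*Hoxd8*, the last detected gene of cluster d, had log2 signals of 5.55, 6.23, 6.35 and 6.50 in mutant pools 1 to 4 and of 5.12, 5.35 and 5.67 in wild-type pools 1, 3 and 4. Only mutant pool 1 fell within the wild-type range. The change was 0.78 ± 0.23 (SE, unadjusted p = 0.00895, adjusted p = 0.289), and without mutant pool 1 it was 0.98 with an adjusted p of 0.0546. *Hoxb8* had 5.16, 5.45, 5.33 and 6.03 in mutants and 4.84, 4.82 and 5.30 in wild-type pools, where it was well above background on 2 of 3 arrays. Here too mutant pool 1 fell below wild-type pool 4, and the change was 0.51 ± 0.22 (SE, unadjusted p = 0.0439). It was 0.33 without mutant pool 4 and 0.19 with arrays scaled to the 75th percentile.

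Group 9 genes, which act together at the lower ribs and the lumbar region, differed in direction. *Hoxb9* (probe at chr11:96137065-96137124, mm9) had log2 signals of 6.01, 7.16, 6.18 and 7.96 in mutant pools 1 to 4 and of 5.17, 5.09 and 5.85 in wild-type pools 1, 3 and 4. All mutant pools were above all wild-type pools, and the spread among mutants was wider than among wild-type pools. The change of 1.46 ± 0.44 (SE), a fold of 2.75, had an adjusted p of 0.293 and an exact two-sided permutation p of 0.0857. It was 0.72 without mutant pools 2 and 4 and 0.85 with arrays scaled to the 75th percentile. A second, dimmer *Hoxb9* probe was well above background on 2 mutant arrays and 1 wild-type array and was not tested. Its log2 signals overlapped, at 3.74, 4.88, 4.36 and 5.20 in mutants and 4.08, 3.93 and 4.67 in wild-type pools.

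*Hoxc9* had log2 signals of 5.63, 6.14, 5.39 and 6.52 in mutants and of 4.71, 5.37 and 5.98 in wild-type pools, where 2 of 3 arrays were well above background. The genotypes overlapped, and the change was 0.56 ± 0.34 (SE). *Hoxa9* had 8.43, 8.05, 8.24 and 8.68 in mutants and 8.19, 8.47 and 8.92 in wild-type pools. It was the only detected gene of groups 5 to 9 with a lower mean in mutants, at −0.18 ± 0.20 (SE), next to *Hoxa7* at 1.39 in the same cluster. The difference between these 2 genes was not tested.

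**Figure D3:**
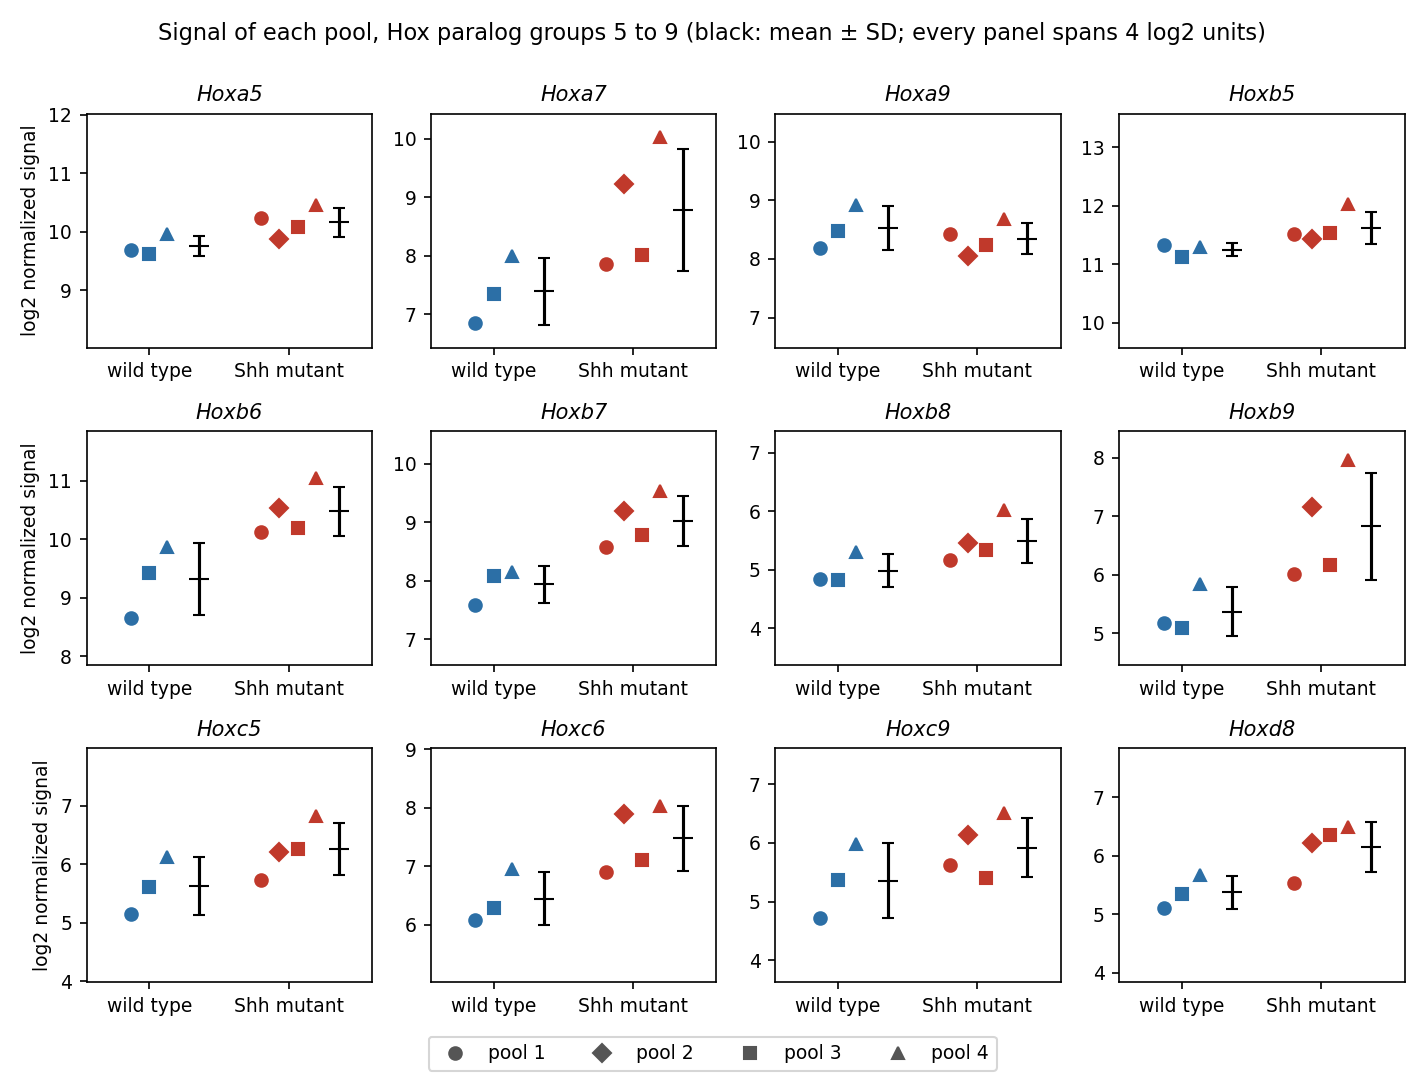
Log2 normalized signal (vertical) of every pool for the 12 detected genes of paralog groups 5 to 9, with wild-type pools in blue, mutant pools in red, a marker shape for each pool number and black bars for mean ± SD. Mutant pool 4 is the highest mutant in all 12 panels, and *Hoxa9* is the panel in which the mutant mean is the lower.

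Promoter sequences are shown for the 5 tested genes of groups 5 to 9 for which one was given. *Hoxd3*, whose mean was lower in mutants, is shown beside them. None was given for *Hoxb6*, *Hoxb7*, *Hoxb9* or *Hoxc6*, so that of the genes with a 2-fold change only *Hoxa7* is shown. RefSeq (GRCm38.p6) gave a promoter for 22 of the 38 Hox genes and for 13 of the 24 tested ones. The 250 bases before the start are printed 5′ to 3′ on the strand of the gene. Capitals mark TTTATG on either strand, the core letters bound by the caudal-type Cdx factors, which are known activators of central Hox genes. *Hoxa7* lies at chr6:52218574-52218823 (minus strand), *Hoxb8* at chr11:96281655-96281904 (plus), *Hoxd8* at chr2:74704365-74704614 (plus), *Hoxa5* at chr6:52204588-52204837 (minus), *Hoxa9* at chr6:52227371-52227620 (minus) and *Hoxd3* at chr2:74711743-74711992 (plus).
Hoxa7: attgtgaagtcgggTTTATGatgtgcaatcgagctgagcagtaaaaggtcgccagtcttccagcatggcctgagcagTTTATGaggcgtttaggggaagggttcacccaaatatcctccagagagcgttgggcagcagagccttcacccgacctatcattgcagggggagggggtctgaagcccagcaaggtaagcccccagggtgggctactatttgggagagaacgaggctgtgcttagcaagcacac
Hoxb8: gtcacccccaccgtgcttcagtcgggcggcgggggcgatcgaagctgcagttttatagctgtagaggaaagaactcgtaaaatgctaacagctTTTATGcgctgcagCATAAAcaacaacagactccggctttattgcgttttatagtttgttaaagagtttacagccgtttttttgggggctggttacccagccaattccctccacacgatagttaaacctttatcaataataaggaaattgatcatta
Hoxd8: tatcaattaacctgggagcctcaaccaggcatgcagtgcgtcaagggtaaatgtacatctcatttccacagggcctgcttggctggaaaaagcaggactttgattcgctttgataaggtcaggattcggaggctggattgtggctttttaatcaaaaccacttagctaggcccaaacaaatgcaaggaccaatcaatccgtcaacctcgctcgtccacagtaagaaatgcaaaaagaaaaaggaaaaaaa
Hoxa5: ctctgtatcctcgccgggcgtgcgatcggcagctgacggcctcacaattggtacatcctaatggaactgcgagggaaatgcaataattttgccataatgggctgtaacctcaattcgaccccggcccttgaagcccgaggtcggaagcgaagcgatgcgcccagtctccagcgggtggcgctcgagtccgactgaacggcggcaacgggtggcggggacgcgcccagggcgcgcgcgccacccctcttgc
Hoxa9: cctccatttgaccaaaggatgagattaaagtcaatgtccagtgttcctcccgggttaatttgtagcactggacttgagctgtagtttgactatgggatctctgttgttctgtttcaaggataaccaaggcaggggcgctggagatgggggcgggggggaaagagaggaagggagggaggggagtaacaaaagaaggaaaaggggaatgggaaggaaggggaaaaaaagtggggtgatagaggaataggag
Hoxd3: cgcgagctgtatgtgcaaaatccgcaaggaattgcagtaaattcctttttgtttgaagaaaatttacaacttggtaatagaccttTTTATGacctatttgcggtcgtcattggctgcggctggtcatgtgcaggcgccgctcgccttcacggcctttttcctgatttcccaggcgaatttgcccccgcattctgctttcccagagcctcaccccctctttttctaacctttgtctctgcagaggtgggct

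*Hoxa7* and *Hoxb8* each held 2 matches to TTTATG, and *Hoxd8*, *Hoxa5* and *Hoxa9* held none. *Hoxd3* held 1. Over all 32851 promoters of the same length, 10.8% held at least 1 match, against 4 of the 13 tested Hox genes with a promoter, namely 2 of 5 in groups 5 to 9 and 2 of 8 in groups 1 to 4. The joint site of Hox and Pbx proteins, TGATNNAT, was found in 3 of the 13, *Hoxa2*, *Hoxb1* and *Hoxb8*, and in 7.68% of all promoters. AGGTCA, the core bound by retinoic acid receptors, was found in 5 of the 13, *Hoxd8*, *Hoxd3*, *Hoxd4*, *Hoxb4* and *Hoxc4*, and in 14% of all promoters. GACCACCCA, the site of the Gli factors that Shh signalling acts through, was found in none of them and in 0.225% of all promoters. Both strands were searched. The Cdx and AGGTCA matches of *Hoxd3* overlap by 2 bases. These matches are letters in a window and not binding sites.

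The genes of groups 5 to 9 also varied together between pools of the same genotype. For each array, the deviation of each gene from its mean over the 7 arrays was taken, and the median over the 12 genes was computed. For mutant pools 1 to 4 this median was −0.08, 0.43, 0.07 and 0.84, and for wild-type pools 1, 3 and 4 it was −0.89, −0.47 and −0.09. The highest wild-type pool thus came level with the lowest mutant pool. Mutant pool 4 was the highest mutant for 12 of 12 genes, wild-type pool 4 the highest wild-type pool for 11 of 12, and wild-type pool 1 the lowest for 8 of 12. In groups 1 to 4 the same medians ran only from −0.15 to 0.15, with mutant pool 4 the highest mutant for 10 of 12 genes.

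**Figure D4:**
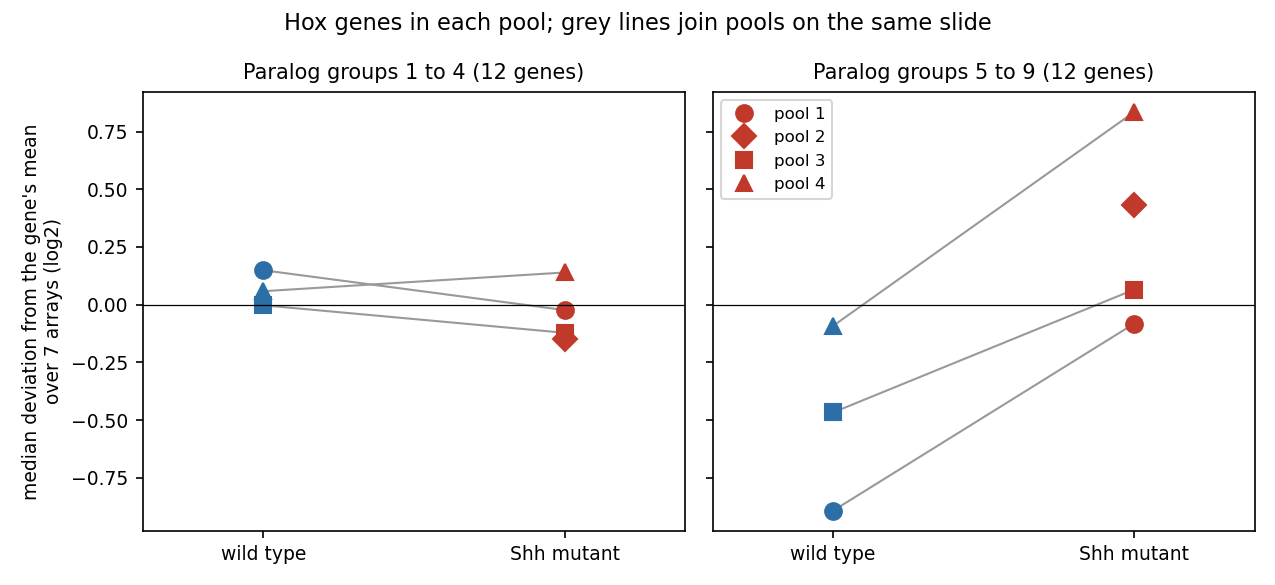
Median deviation of the detected genes of paralog groups 1 to 4 (left) and 5 to 9 (right) from each gene's mean over the 7 arrays, on the log2 scale, for each pool. Grey lines join the wild-type and the mutant pool of a slide. All 3 lines go up on the right, while on the left the medians stay between −0.15 and 0.15.

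Within slides the median difference held at nearly the same size, while single genes varied to different degrees. On slides 1, 3 and 4 *Hoxb9* differed by 0.84, 1.09 and 2.12, and *Hoxc5* by 0.58, 0.66 and 0.69. On slides 1, 3 and 4 the median difference over the 12 genes of groups 5 to 9 was 0.70, 0.67 and 0.78, with 12, 11 and 11 genes higher in the mutant pool. For groups 1 to 4 it was −0.13, −0.13 and 0.04, with 3, 4 and 6 of 12 genes higher. The median over all probes was 0.01, −0.02 and 0.05 on the same slides. In 11 of the 12 genes of groups 5 to 9, every gene but *Hoxa9*, the mutant pool was the higher on all 3 slides, and so it was for 9 of the 10 genes well above background on all 7 arrays.

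The size of these changes depended on the processing. The median of groups 5 to 8 was 0.78 here, 0.40 when the same corrected signals were scaled to the 75th percentile and 0.89 when Feature Extraction's processed signal was so scaled, with 11 of 12 genes of groups 5 to 9 higher under all 3. With mutant pools 2 and 4 left out, the median of groups 5 to 8 was 0.54 and 11 of 12 genes were still higher. In the authors' own normalized values, whose array medians range from 5.50 to 9.93, 9 of the 12 genes were higher, and *Hoxa5* and *Hoxb5* were at −0.25 and −0.26, against a median of −0.54 over all probes. With those arrays set to 1 median, they were at 0.36 and 0.35.

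A second probe was present for 12 Hox genes, and both probes were tested for 5 of these. For *Hoxa3*, *Hoxa4* and *Hoxb3* the second probes had changes of −0.08, 0.10 and −0.03, each with the sign of the brightest probe. The second probe of *Hoxb2* had a change of −0.28, against 0.02 for the brightest probe. It lies on the opposite strand to the gene at chr11:96211860-96211919 (mm9), so that it reads another transcript.

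Genes known to set Hox expression or to bind DNA with Hox proteins were read from a list of 40, of which 39 were on the array and 36 were tested. Of these 18 were higher and 18 lower in mutants, none passed at an adjusted p under 0.05, and the median change was −0.01. At an unadjusted p under 0.05, 2 of the 36 were lower and none higher, a share near the 3.96% of all probes. *Rdh10*, which makes retinal for retinoic acid synthesis, had a change of −0.38 ± 0.11 (SE, unadjusted p = 0.00612), and *Rara*, a retinoic acid receptor, of −0.41 ± 0.13 (SE, unadjusted p = 0.0117). All mutant pools were below all wild-type pools for both, and for *Pknox2*, a cofactor of the Prep family, at −0.21, which makes 3 of 36 beside 3.53% of all probes. *Aldh1a2*, the main retinoic acid synthetase of this tissue, and *Cyp26a1*, which breaks it down, had changes of −0.07 and −0.02. The Hox partners *Meis1* and *Meis2* were at −0.06 and 0.06.

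Of the Cdx factors, which are expressed toward the tail, *Cdx1* and *Cdx4* were well above background on no array. *Cdx2*, named after its values were seen, had log2 signals of 5.57, 7.48, 5.98 and 5.44 in mutant pools 1 to 4 and of 4.06, 5.95 and 4.81 in wild-type pools 1, 3 and 4. Mutant pool 2 was the highest, mutant pool 3 was level with wild-type pool 3, and mutant pools 1 and 4 lay among the wild-type values. The change of 1.18 ± 0.55 (SE) had an unadjusted p of 0.0621, and *Cdx2* was tested through the mutants only, with 2 of 3 wild-type arrays well above background. On slides 1, 3 and 4 the mutant pool was higher for *Cdx2* by 1.51, 0.03 and 0.63. Whether *Cdx2* has a part in the Hox values was not tested. *Evx1*, a neighbour of the 5′ end of cluster a, was well above background on no array.

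Markers of other cell types moved with genotype as well, and their part in the Hox values was not tested. Of the 7 markers of tail bud and presomitic mesoderm, where 5′ Hox genes are switched on, 4 were tested, 1 higher and 3 lower in mutants, and *Wnt3a* and *Hes7* were well above background on no array. *T* was above it on 3 of 3 wild-type arrays and on 0 of 4 mutant arrays. The other tested markers of this list were *Tbx6* at −0.08, *Nkx1-2* at −0.20 and *Cdx2* at 1.18, so that *T* does not stand for the list. The linear signal summed over a list is set mostly by its brightest probes and is given here to show the range between pools. It was 260.3 to 428.1 in mutants and 293.2 to 333.8 in wild-type pools. All 8 tested paraxial mesoderm and somite markers were lower in mutants, with *Pax1* at −3.00 (adjusted p = 0.0423) and *Pax9* at −2.53 (adjusted p = 0.0352) called. Of all probes tested, 0.540% were called. *Pax9* was well above background on 1 of 4 mutant arrays and on 3 of 3 wild-type arrays, through which it was tested. Their summed signal was 2849 to 4503 in mutants against 4378 to 8908 in wild-type pools.

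Liver bud markers were higher for 8 of 8 genes, 3 of them called (*Ttr* at 0.91, *Fga* at 1.45 and *Fgb* at 0.82), against 0.540% of all probes tested. Their summed signal was 147600 to 200000 in mutants against 135000 to 147500 in wild-type pools. Among intermediate mesoderm markers 2 of 3 tested genes were higher, none called, and *Pax8* was well above background on no array. *Wt1*, named after its values were seen, was at 0.83 (adjusted p = 0.0599), *Lhx1* at 0.24 and *Pax2* at −0.08. The summed signal of that list was 2382 to 3236 in mutants against 1338 to 1700 in wild-type pools. Nearly all of it came from *Wt1*, so it cannot be read as a measure of intermediate mesoderm. Of 11 neural tube markers on the array 7 were tested, and 6 of these were lower, with a median change of −0.29. *Pax6* and *Tubb3* were among the 6 at only −0.03 and −0.04. Neural crest markers were lower for 6 of 7 tested genes, and none of either list was called. Summed signals in mutants against wild-type pools were 4549 to 6356 against 6691 to 7962 for neural tube and 5939 to 6725 against 6409 to 7529 for neural crest. In the second heart field list, which marks the dissected tissue itself, 5 of 11 genes were higher and 6 lower, with a summed signal of 46730 to 56600 in mutants against 51600 to 60300 in wild-type pools. *Foxf2*, at −2.43 (adjusted p = 0.00217), was called. At an unadjusted p under 0.05, 4 were lower (*Isl1*, *Osr1*, *Foxf1a* and *Foxf2*), all without overlap, and 1 was higher (*Tbx18*). Over all probes, 3.96% were lower and 4.00% higher at that p, and 3.53% were lower without overlap. Of the other lists, cardiomyocyte markers were higher for 7 of 7 genes and endothelial markers for 5 of 6, while erythroid markers were lower for 6 of 6 and foregut endoderm markers for 7 of 8, none called.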

How the data were processed

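RNA from 7 pools of E9.5 pSHF was measured on single-colour Agilent arrays. The authors' deposited scan files hold signal and background intensity per spot, read with Feature Extraction 10.5.1.1, and the authors' deposited normalized values are on the log2 scale. Outlier spots (155 to 206 per array) were left out. Mean signals were corrected by normexp (153 negative controls for each array, offset 50), then normalized together by VSN (own code, trimming share 0.9, 7 iterations, 5 strata).

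Probes entered the test if they carried a gene name and all arrays of either genotype read them as well above background (23127 probes, 14894 genes). Genotypes were compared with limma 3.58.1 in R 4.3.3 and adjusted by Benjamini-Hochberg over all probes. The method was tested on simulated data. Tables were handled with the data.table package (version 1.17.8) and figures drawn with matplotlib 3.10.9 in Python 3.11.15. The study's SAM test was not run. Genotype and pool number come from the sample titles, since strain and genotype are swapped between their label fields. Pool numbers 1, 3 and 4 mark a shared slide, and deviations from the genotype means correlated within slides at 0.19, 0.24 and 0.03.

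The members and gene lists were chosen with earlier results of these data known. Named were tested Hox genes with an unadjusted p under 0.05, no overlap or a 2-fold change, the ends of each cluster, and at most 8 genes of the other lists by p. *Shh*, as the target, was named too. Some genes that these rules name are not reported here. Alternatives covered background correction, scaling, the authors' values, filters, slide blocks, array weights, a variance trend, the study's thresholds, the mean of a gene's probes and leaving out each pool. Array coordinates are mm9 and promoters GRCm38.p6, with neither converted.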

Additional observations from a re-analysis of the deposited data

Results flagged for a closer look

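*Hoxa3* stood out because 1 of its 4 mutant pools was far from the other 3. Mutant pool 4 was at 8.16 on the log2 scale against 7.94 to 7.96 in the other mutants, and the gap was 0.929 of the range of the mutants. *Hoxb5* stood out in the same way, with mutant pool 4 at 12.03 against 11.43 to 11.53 and a gap of 0.839 of the range. Both gaps exceed Dixon's 95% critical value for 4 samples. Chance alone passes it in about 1 in 20 groups, and 24 genes were looked at. Both point to mutant pool 4, which had the highest signal of the mutants for 12 of 12 genes of paralog groups 5 to 9. Without it the change of *Hoxb5* was 0.24, and its part in these values beyond that was not tested.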

How the results depend on the processing

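No Hox gene passed an adjusted p under 0.05 in the main analysis or in any of the 24 refits, and the lowest adjusted p among these was 0.0511 for *Hoxb7* with the interquartile range filter. In 23 of the 24 all or all but 1 of the tested genes of paralog groups 5 to 9 were higher in mutants. The exception was the authors' values as deposited, whose array medians differ.

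With 1 pool left out at a time, the median of groups 5 to 8 ran from 0.65 to 0.98, that of groups 9 to 13 from 0.24 to 0.88 and that of groups 1 to 4 from −0.19 to −0.06. The number of genes whose genotypes did not overlap, 5 in the main analysis, ran from 5 to 13, and the 13 came without wild-type pool 4. It was 10 without mutant pool 1, 8 without wild-type pool 3 and 8 without mutant pool 4. With mutant pools 2 and 4 both left out, an alternative chosen after seeing the data, it was 9. With fewer pools, genotypes separate more easily for any probe. The share over all probes is not given for any refit, so the rise cannot be read as one particular to the Hox genes.

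In the authors' values no gene had genotypes without overlap (0), the median of groups 1 to 4 was −0.73, and *Hoxa5* and *Hoxb5* reversed to −0.25 and −0.26, against a median over all probes of −0.54. Set to 1 median per array, also chosen after seeing the data, *Hoxa5* and *Hoxb5* were at 0.36 and 0.35, 8 genes had no overlap and *Hoxc4* and *Hoxd1* reversed to 0.36 and 0.055. With the interquartile range filter, which kept 6 genes of groups 1 to 4, their median was −0.27.

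With slide as a replicate block no Hox gene was called either (0), the median of groups 5 to 8 was 0.75, and *Hoxc4* was at 0.063. *Hoxc4*, at −0.08 in the main analysis, also reversed to 0.016 with quantile normalization, 0.033 without background correction, 0.0072 with array weights and 0.031 without mutant pools 2 and 4. With 1 pool left out it ran from −0.15 to 0.063, *Hoxa9* from −0.35 to 0.018 and *Hoxb1* from −0.16 to 0.016. Detection rests on the call used, with 24 genes here and 27 with the looser call of a positive and significant signal. Precision is limited by having 7 arrays.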
